A study of Mus musculus with 12 samples.

Results

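Cep128 and the 5 protein-coding genes that lie nearest to it on mouse chromosome 12 (Dio2, Tshr, Gtf2a1, Ston2 and Sel1l) were followed in the hearts of 4 groups of mice on 12 Affymetrix expression arrays. A probe set, the group of probes that reads 1 transcript region, was taken as a member where the platform annotation gave it the symbol of 1 of these 6 genes. This gave 20 of the 45037 probe sets of the table: 4 for Cep128, 5 for Sel1l, 3 each for Dio2, Tshr and Gtf2a1, and 2 for Ston2. Cep128 was chosen because its intensity was lower in the knockout-labelled hearts, so its genotype differences are given here as a description with no test. The neighbours were chosen by position, and the question put to them was whether the lower level of Cep128 stood alone or was shared along the chromosome.

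The 4 groups were knockout-labelled hearts after doxorubicin (DOX), WT hearts after DOX, knockout-labelled hearts with no treatment and WT hearts with no treatment, with 3 arrays each that the labels call biological replicates. All mice were C57BL/6J males, and the labels give an age of 8 to 10 weeks. DOX, an anthracycline used against cancer that can injure the heart, was given once at 15 mg/kg by the labels, and whole hearts were taken at day 5. The labels call the altered mice a CHIP knockout, whereas the study's methods describe a CHIP transgene driven in the heart, with WT littermates, a higher dose, older mice and saline in place of no treatment. CHIP is a ubiquitin ligase and cochaperone encoded by Stub1. A Stub1 probe set (1416580_a_at) read 5561, 7998 and 8723 in knockout-labelled DOX hearts against 1944, 1949.9 and 1930.1 in WT DOX hearts, and 8762, 9817 and 9655 in knockout-labelled untreated hearts against 1857, 1831 and 1790.3 in WT untreated hearts. A second Stub1 probe set (1434412_x_at), whose suffix marks possible cross-hybridisation, overlapped between genotypes in both states, with log2 differences of -0.08 after DOX and -0.04 without treatment. Neither probe set was lower on the arrays labelled knockout beyond their spread and the first was higher, against the label, so the groups are called knockout-labelled throughout. Each direction given below for genotype is between arrays so labelled. Neither source says whether an array held 1 heart or a pool.

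CEP128 is a protein of the centriole, found on the subdistal appendages of the mother centriole, where microtubules are anchored and cargo moves at the base of the primary cilium. Centrioles are duplicated once in each cell cycle, and adult heart muscle cells have largely left the cycle. Dio2 encodes the deiodinase that turns thyroxine into active triiodothyronine inside cells, and Tshr encodes the receptor for thyroid-stimulating hormone. Gtf2a1 encodes the large subunits of the general transcription factor TFIIA, Ston2 an endocytic adaptor that sorts synaptotagmin, and Sel1l the adaptor of the HRD1 ubiquitin ligase in ER-associated degradation.

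In the RefSeq gene order of the assembly GRCm38.p6 the genes follow each other as Dio2, Cep128, Tshr, Gtf2a1, Ston2 and Sel1l. These 6 are the only protein-coding genes of the 19 genes of any type from Dio2 to Sel1l. Nrxn3 is the protein-coding gene before them and Gm40892 the one after. Of 4 genes that lie wholly inside Cep128, only 5430427M07Rik has a probe set, and it read between 6.07 and 7.82 on all 12 arrays.

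Promoter windows of 250 bases before to 50 bases after the start site were found in the RefSeq table of the same assembly for 5 of the 6 genes. The window of Cep128 is shown because that gene differed most of the 6 between the genotypes, and that of Sel1l because it is the neighbour with the brightest probe set. Each is written 5′ to 3′ on its own strand, with matches to the searched motifs in capitals.
Cep128, chr12:91384360-91384659, minus strand: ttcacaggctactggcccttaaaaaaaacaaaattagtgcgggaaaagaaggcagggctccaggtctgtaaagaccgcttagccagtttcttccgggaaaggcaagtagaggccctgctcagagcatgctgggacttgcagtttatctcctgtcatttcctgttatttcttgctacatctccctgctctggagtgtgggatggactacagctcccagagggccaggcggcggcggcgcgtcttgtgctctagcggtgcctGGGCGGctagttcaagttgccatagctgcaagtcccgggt
Sel1l, chr12:91849108-91849407, minus strand: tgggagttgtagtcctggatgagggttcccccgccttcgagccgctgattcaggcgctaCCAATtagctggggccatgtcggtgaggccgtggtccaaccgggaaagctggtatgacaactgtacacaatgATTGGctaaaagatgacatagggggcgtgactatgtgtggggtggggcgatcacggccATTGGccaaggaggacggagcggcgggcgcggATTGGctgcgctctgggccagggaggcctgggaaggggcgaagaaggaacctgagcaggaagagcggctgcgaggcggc
Both strands were searched for the CCAAT box, the TATA box (TATAAA), the GC box (GGGCGG), the CHR element of cell cycle promoters (TTTGAA) and the cAMP response element (TGACGTCA), and no motif contains another. The Cep128 window held 1 match, a GC box that begins at base 261 of the window and so lies after the start site. The Sel1l window held 4 CCAAT matches in either orientation, at bases 60, 132, 190 and 222. Of all 32851 windows of this length, 35.7% held a GC box match, 37.4% a CCAAT match, 17.9% a CHR match, 13.6% a TATAAA match and 1.79% a cAMP response element. Dio2 held 1 TATAAA match and 1 cAMP response element, and the windows of Gtf2a1 and Ston2 held none of the 5 motifs. The Cep128 window had a GC content of 54.67% with 11 CpG sites, that of Sel1l 62.33% with 20, and the median window 52.67% with 7.

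The arrays were alike in scale, with medians between 28.9 and 30.4 intensity units and correlations of 0.988 to 0.997 within groups and 0.976 to 0.994 between groups. Averaged over all 12 arrays, 51.4% of probe sets fell below 32, the value added to each intensity before log2 was taken. Among the members this held for 11 of 20 probe sets, namely all of Dio2, Tshr and Ston2, 1 of Gtf2a1 and 2 of Cep128, so their log2 differences are damped and weakly measured. Levels of different probe sets are not compared with each other.

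Cep128 was lower in knockout-labelled hearts than in WT hearts in both states, and the gap was wider without treatment. Its brightest probe set, 1441867_x_at, read 135, 135 and 138 in knockout-labelled DOX hearts against 209, 285 and 269 in WT DOX hearts. Without treatment it read 124, 124 and 106 in knockout-labelled hearts against 514, 462 and 438 in WT hearts. No knockout-labelled array reached any WT array, and the WT untreated arrays stood above all others. The knockout-labelled mean was 53.3% of the WT mean after DOX (136 ± 1.75 against 254 ± 40.4, SD, n = 3 each) and 25.0% of it without treatment (118 ± 10.4 against 471 ± 38.7, SD, n = 3 each). On the log2(intensity + 32) scale these differences were -0.76 (SE 0.10) and -1.75 (SE 0.10), the 89th lowest after DOX and the 7th lowest without treatment of the 45037 probe sets.

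The same order of groups was seen in a second probe set, 1429229_s_at, whose suffix marks probes that can also read other transcripts. It read 70.5, 69.5 and 101 in knockout-labelled DOX hearts against 127, 185 and 139 in WT DOX hearts, and 87.5, 90.3 and 79.9 in knockout-labelled untreated hearts against 283, 261 and 208 in WT untreated hearts. Again no array of one genotype reached the other, with log2 differences of -0.70 after DOX and -1.25 without treatment (SE 0.14 each). The suffix of the brightest probe set also marks possible cross-hybridisation, while that of 1429228_at marks probes to a single gene. The last read 20.6, 15.0 and 17.8 in knockout-labelled DOX hearts against 23.4, 51.0 and 30.2 in WT DOX hearts, and 19.3, 15.6 and 13.8 in knockout-labelled untreated hearts against 77.5, 48.6 and 42.9 in WT untreated hearts. It thus kept the genotypes apart at a low level, with log2 differences of -0.41 and -0.85 (SE 0.16 each) that the added 32 damps, and with 1 added they were -0.87 and -1.70. The fourth probe set, 1430815_at, lay between 6.36 and 8.73 on every array and held no difference to read.

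The 3 probe sets that carried signal moved together from array to array. Over the 12 arrays their log2 values correlated at r = 0.94 to 0.97, which mostly reflects the groups, and after the group means were taken away at r = 0.70 to 0.81. In each of the 3, WT untreated replicate 1 was the highest and replicate 3 the lowest of its group, and WT DOX replicate 2 was the highest and replicate 1 the lowest. Since the 3 probe sets read the same RNA, they are not separate evidence for the difference.

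**Figure D1:**
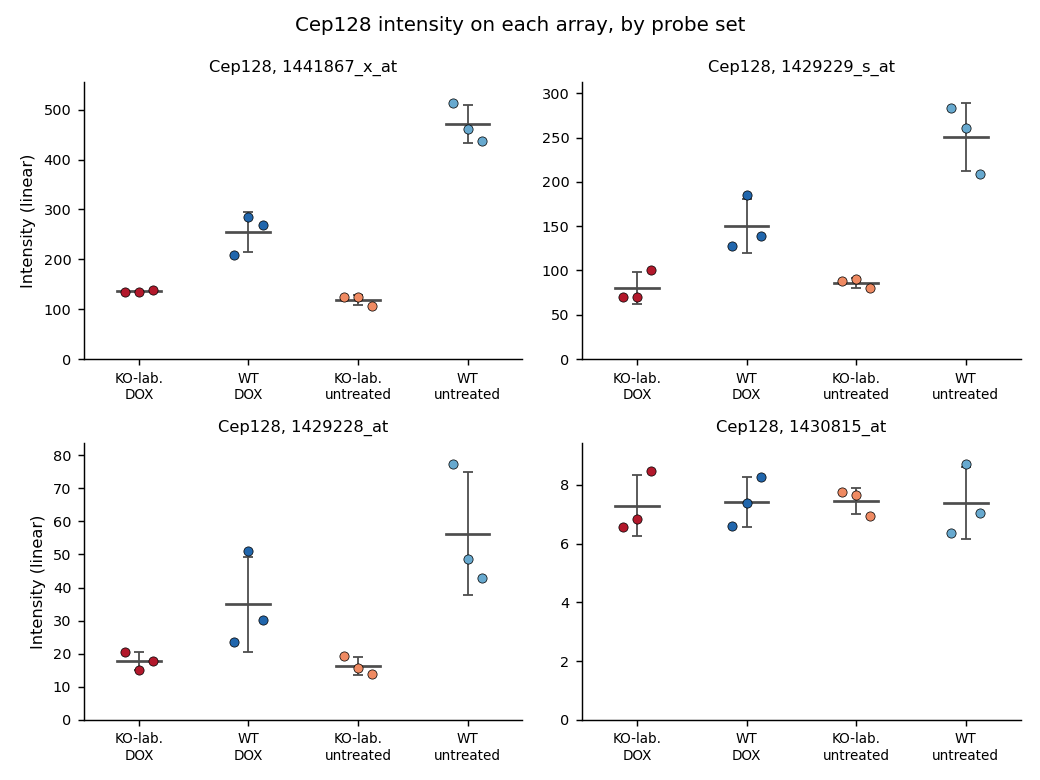
Linear intensity of the 4 Cep128 probe sets on each of the 12 arrays, with a point per array, a line at the group mean and bars of 1 SD (n = 3). In 3 probe sets the knockout-labelled arrays lie below the WT arrays in both states, and 1430815_at stays between 6.36 and 8.73.

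DOX lowered Cep128 in WT hearts. The brightest probe set averaged 254 ± 40.4 in WT DOX hearts against 471 ± 38.7 in WT untreated hearts (SD, n = 3 each), a log2 fold change of -0.82 with a 95% interval of -1.04 to -0.60 and a limma adjusted p of 0.0094. The second, 1429229_s_at, averaged 150.4 ± 30.3 against 251 ± 38.4, with -0.64 (-0.96 to -0.32) and a limma adjusted p of 0.047. All WT DOX arrays lay below all WT untreated arrays in both. The third, 1429228_at, gave -0.40 (-0.76 to -0.04) with a limma adjusted p of 0.21, and its arrays overlapped. Thus 2 of the 20 member probe sets were called, both lower, against 3.06% of all probe sets called in either direction and 1.4% called lower. The WT untreated arrays also stand in the contrast for which Cep128 was chosen, so this response is not independent of that choice. The call of 1429229_s_at was lost without any 1 of 10 of the 12 arrays, the exceptions being the third replicates of both knockout-labelled groups, and its adjusted p over the fits without 1 array ran between 0.040 and 0.14. The call of the brightest probe set was kept in all 12 such fits (0.0069 to 0.041). Of the 11 other settings tried, that of 1429229_s_at was lost in 5 (adjusted p 0.050 to 0.27) and that of the brightest probe set in 1, the methods' t-test (adjusted p = 0.19).

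In knockout-labelled hearts no member was called for DOX, against 2.2% of all probe sets, and 0 of 20 had an unadjusted p under 0.05 by limma, against 16.2%, or by the methods' t-test. The brightest Cep128 probe set averaged 136 ± 1.75 in knockout-labelled DOX hearts against 118 ± 10.4 in knockout-labelled untreated hearts (SD, n = 3 each), with every DOX array above every untreated array. Its log2 fold change was 0.16 with an interval of -0.06 to 0.38 and a limma adjusted p of 0.48. The second probe set gave -0.08 (-0.40 to 0.24) with overlapping arrays. The DOX response of the brightest probe set was higher in knockout-labelled than in WT hearts by 0.98 on the log2 scale (SE 0.14). This difference of responses equals the difference of the 2 genotype values for which Cep128 was chosen, so it is a description with no test. Among the 16 neighbour probe sets the interaction was called in 0 by limma, as for all probe sets of the table (0%), and 0 had an unadjusted p under 0.05, against 8.69% of all probe sets.

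The cell makeup of the hearts was read from summed marker intensities. All 7 cardiomyocyte markers were bright, and their sum ran between 83687 and 86537 in knockout-labelled DOX hearts and between 77919 and 94169 in WT DOX hearts. It ran between 83112 and 89117 in knockout-labelled untreated hearts and between 91027 and 94387 in WT untreated hearts, so that without treatment the genotypes did not overlap. By limma 0 of the 7 were called there. Their median log2 difference was -0.07, between -0.23 for Tnni3 and 0.49 for Myl7, and the brightest markers weigh most in a sum. The 6 smooth muscle and pericyte markers summed to 16141 to 21424 in knockout-labelled untreated hearts, above the 11176 to 12590 of WT untreated hearts. Only Acta2 of the 6 was called there by limma (2.41), against 2.75% of all genes. The median of the 6 was 0.11 and the lowest was Kcnj8 at -0.37. After DOX the sums overlapped, at 11369 to 12871 in knockout-labelled and 11599 to 12808 in WT hearts. The 6 fibroblast markers summed to 10839 to 11620 in knockout-labelled DOX hearts, above the 8962 to 10281 of WT DOX hearts, and to 11517 to 16417 in knockout-labelled untreated hearts and 9765 to 11832 in WT untreated hearts, which overlapped. Of these 6, 1 was called higher after DOX, Lum (1.17, limma adjusted p = 0.020), and 1 without treatment, Col1a1 (1.13, adjusted p = 0.048). The shares of all genes called in either direction were 1.42% after DOX and 2.75% without treatment. The 3 erythroid markers that matched, of 6, summed to 40.4 to 51.0 in knockout-labelled DOX hearts and 35.6 to 56.3 in WT DOX hearts, and to 85.0 to 345 in knockout-labelled untreated hearts and 212 to 1160.4 in WT untreated hearts, overlapping in both states. In whole hearts fewer cells of a type and less RNA per cell cannot be told apart, and the part of cell makeup in the Cep128 difference was not tested.

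None of the 5 neighbours shared the genotype difference at the limma threshold. Of their probe sets 9 averaged below 32, among them all of Dio2, Tshr and Ston2, where a fall could hardly be seen. Of the 16 neighbour probe sets, 0 were called after DOX, against 0.941% of all probe sets, and 0 without treatment, against 1.81%. At an unadjusted p under 0.05 limma gave 0 and 0 of 16, against 15.5% and 14.1% of all probe sets, and the methods' t-test gave 2 after DOX and 0 without treatment, none of which passed adjustment. Their log2 differences ran between -0.21 and 0.20 after DOX, with a median of -0.02, and between -0.16 and 0.72 without treatment, with a median of -0.01. The lowest adjusted p was 0.37 after DOX and 0.39 without treatment.

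Gtf2a1 and Sel1l were the neighbours with clear signal. Gtf2a1 1454631_at read 169.6, 164 and 170.3 in knockout-labelled DOX hearts against 177, 208 and 202 in WT DOX hearts, and 168, 128 and 160.2 in knockout-labelled untreated hearts against 196, 164 and 161 in WT untreated hearts. The DOX groups did not overlap and the untreated groups did, with log2 differences of -0.19 (95% interval -0.39 to 0.02, adjusted p = 0.37 by limma) and -0.16 (-0.36 to 0.04, adjusted p = 0.51). A second Gtf2a1 probe set, 1421357_at, overlapped in both comparisons with differences of -0.08 and -0.05, and the dim 1433511_at gave -0.07 and 0.11.

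Sel1l 1436774_at read 568, 444 and 457 in knockout-labelled DOX hearts against 568, 485 and 659.9 in WT DOX hearts, and 461, 448 and 504 in knockout-labelled untreated hearts against 534, 431 and 524 in WT untreated hearts. The genotypes overlapped in both states, with log2 differences of -0.21 (-0.48 to 0.07, limma adjusted p = 0.48) and -0.07 (-0.34 to 0.21, adjusted p = 0.91). The other 4 Sel1l probe sets ran between -0.10 and 0.20 after DOX and between -0.03 and 0.23 without treatment. One of them, 1430692_a_at, was wholly higher in knockout-labelled DOX hearts, at 40.1, 46.2 and 37.2 against 36.0, 24.1 and 36.1 in WT DOX hearts, with an adjusted p of 0.38. The Sel1l probe sets thus did not share a direction. The lowest bounds of the Gtf2a1 and Sel1l intervals were -0.39 and -0.48 after DOX and -0.36 and -0.34 without treatment. They were smaller in size than the differences of the brightest Cep128 probe set, -0.76 and -1.75, for which Cep128 was chosen. After DOX the dim Cep128 1429228_at gave -0.41, smaller in size than the Sel1l bound. There the bounds do not set Sel1l apart from every Cep128 probe set.

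Ston2, Tshr and Dio2 read near the floor of the arrays. Ston2 1435657_at read 23.0, 23.0 and 29.4 in knockout-labelled DOX hearts against 18.6, 18.2 and 22.7 in WT DOX hearts, and 34.9, 26.5 and 21.9 in knockout-labelled untreated hearts against 28.9, 29.9 and 30.1 in WT untreated hearts. It was wholly higher in the knockout-labelled hearts after DOX (0.14, limma adjusted p = 0.42) and overlapped without treatment (-0.05, adjusted p = 0.88). The second Ston2 probe set, 1459153_at, lay between 13.3 and 19.9 with 0.01 and -0.06. Tshr 1442300_at stayed between 18.1 and 23.8 and its other probe sets between 4.59 and 11.3 on all 12 arrays, with genotype differences between -0.02 and 0.01. In the heart at these intensities a fall of Tshr was not measurable. No array read above 23.8, and whether these probe sets would show a rise was not tested.

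Dio2 1418937_at read 12.8, 15.1 and 18.3 in knockout-labelled DOX hearts against 10.9, 10.8 and 13.2 in WT DOX hearts. Without treatment it read 19.7, 17.0 and 120.3 in knockout-labelled hearts against 11.2, 11.5 and 13.6 in WT hearts. The untreated groups did not overlap, and 1 array, knockout-labelled untreated replicate 3, stood far above all others. The same array was also the highest in the other Dio2 probe sets, at 29.3 in 1418938_at and 15.2 in 1426081_a_at, against 12.0 to 16.9 and 6.25 to 8.75 on the other 11 arrays. Their genotype differences ran between -0.02 and 0.17. The untreated genotype difference was 0.72 (-0.05 to 1.49, limma adjusted p = 0.39) with that array and 0.19 (adjusted p = 0.17) without it. Dio2 is known from brown fat, so the fat markers were read on that array, of which 9 had a probe set. Of these, 1 was the highest of the 12 arrays there (Adipoq, the adipocyte hormone adiponectin, at 20.8 against 6.34 to 15.0 on the other 11) and 1 the lowest (Elovl3, a fatty acid elongase of brown fat, at 23.8 against 24.1 to 34.1). The other 7 lay inside the range of the other arrays, among them Ucp1, the uncoupling protein that defines brown fat, at 9.40 against 8.77 to 13.3. The array also had the highest sums of the fibroblast markers (16417) and the macrophage markers (4861) of all 12, and the part of other cells in its Dio2 value was not tested.

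Without overlap between the genotypes, 3 of the 16 neighbour probe sets were wholly higher and 1 wholly lower in knockout-labelled hearts after DOX, against 11.2% and 9.13% of all probe sets. Without treatment 2 were wholly higher, both of Dio2, and 0 wholly lower, against 8.7% and 10.7%. Of the Cep128 probe sets 3 of 4 were wholly lower in both comparisons, which is the pattern they were chosen for.

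**Figure D2:**
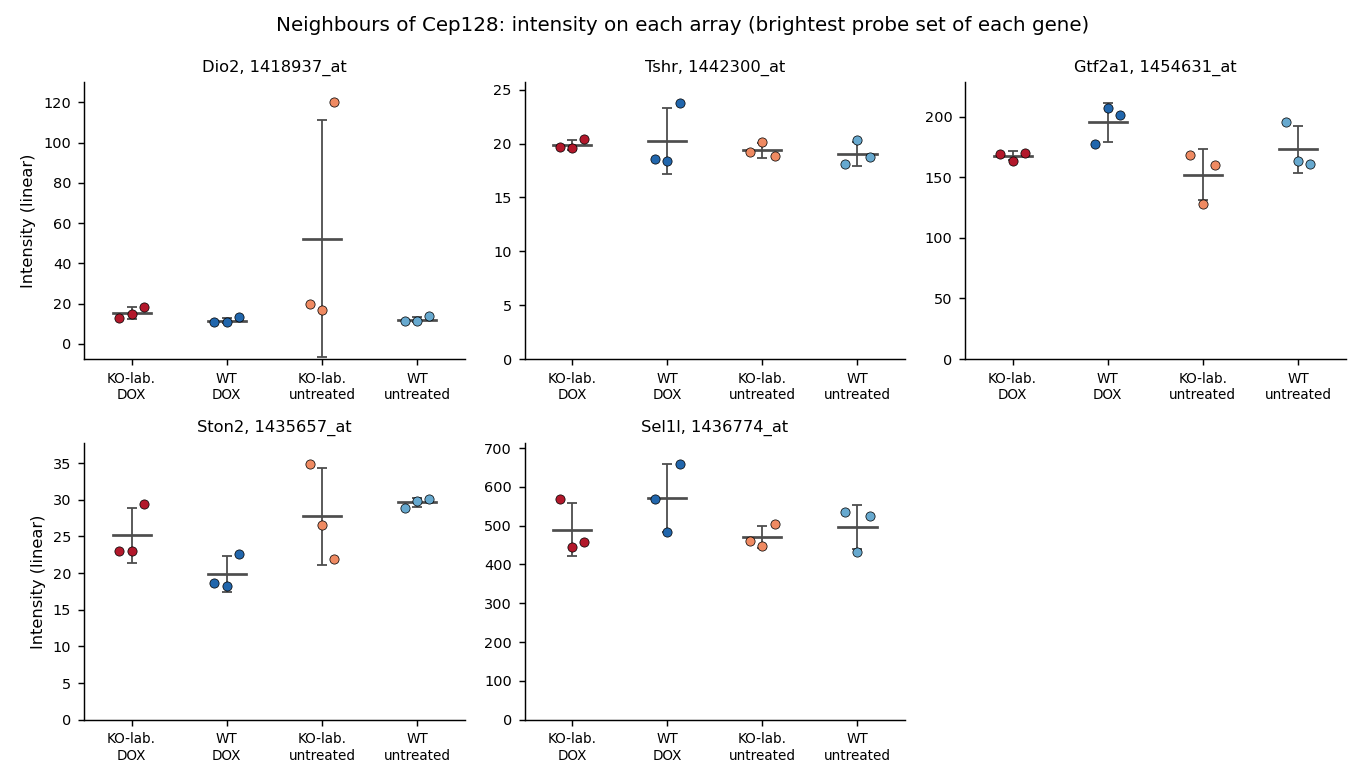
Linear intensity of the brightest probe set of each neighbour on each of the 12 arrays, with a point per array, a line at the group mean and bars of 1 SD (n = 3). Gtf2a1 and Sel1l overlap between genotypes without treatment, Ston2 and Tshr lie under 35 on every array, and 1 knockout-labelled untreated array of Dio2 reads 120.3.

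DOX moved none of the neighbours past the threshold. In knockout-labelled hearts 0 of their 16 probe sets were called, and in WT hearts also 0, with 0 and 1 at an unadjusted p under 0.05 by limma, Ston2 1435657_at, against 16.2% and 18.8% of all probe sets. It averaged 19.8 ± 2.45 in WT DOX hearts against 29.6 ± 0.654 in WT untreated hearts (SD, n = 3 each), with every DOX array below every untreated array, a log2 fold change of -0.25 (-0.42 to -0.08) and a limma adjusted p of 0.10. In knockout-labelled hearts the same probe set gave -0.06 (-0.23 to 0.11) with overlapping arrays. Gtf2a1 1454631_at gave 0.12 (-0.08 to 0.33) in knockout-labelled hearts and 0.15 (-0.05 to 0.35) in WT hearts, and Sel1l 1436774_at 0.05 (-0.23 to 0.32) and 0.19 (-0.09 to 0.46). These brightest probe sets of Gtf2a1 and Sel1l thus had positive, uncalled differences in both genotypes, while that of Cep128 fell in WT hearts. Of the 16 neighbour probe sets 0 were wholly higher and 1 wholly lower with DOX in knockout-labelled hearts, against 11.1% and 9.59% of all probe sets, and 0 and 2 in WT hearts, against 11.6% and 12.8%.

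**Figure D3:**
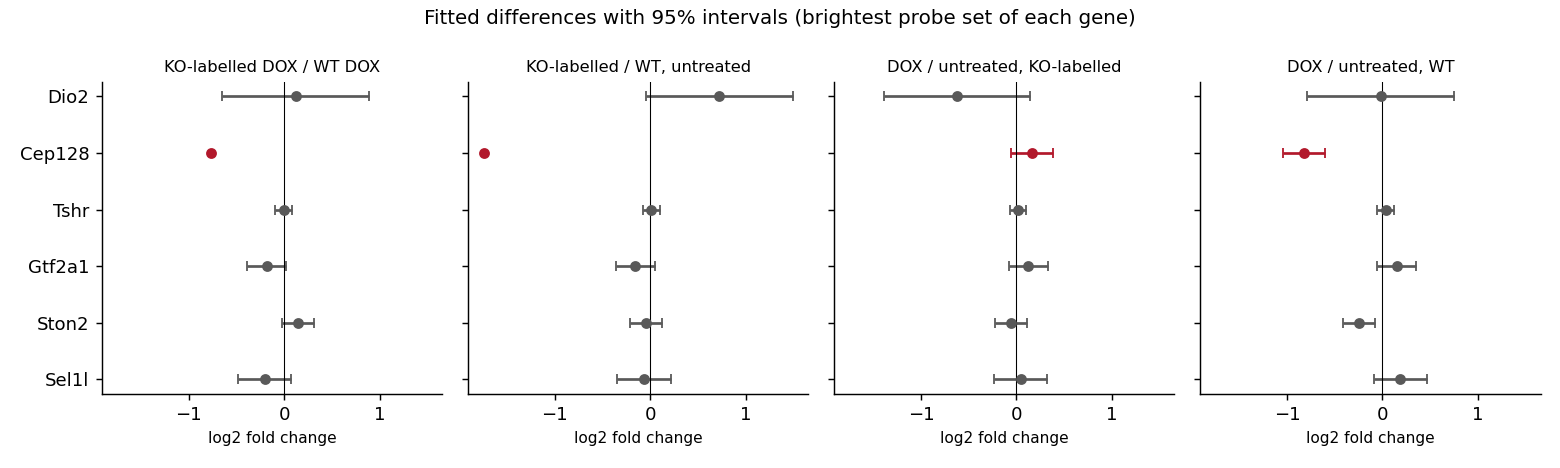
Fitted log2 fold changes of the brightest probe set of each gene in chromosome order, in 4 comparisons, with 95% intervals from limma. Cep128 has no interval in the genotype panels because it was chosen for that difference, and it lies at -0.76 and -1.75 there and at -0.82 for DOX in WT hearts.

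Farther out, the 20 genes with a probe set on either side of the 6 were read with 1 probe set each. Of these 40 flanking genes, 0 were called by limma for genotype after DOX, against 1.42% of 18193 genes, and 0 without treatment, against 2.75%. At an unadjusted p under 0.05 there were 9 in each, against 18.8% and 18.6% of all genes. Their median log2 difference was 0.00 in both, and they ran between -0.47 (Ttc7b) and 0.58 (Galc) after DOX and between -0.49 (Rps6ka5) and 0.42 (Ahsa1) without treatment. By side, the medians were 0.03 before Dio2 and -0.03 past Sel1l after DOX, and 0.02 and -0.04 without treatment. Without treatment 6 of the 20 genes past Sel1l reached that unadjusted p by limma. All were lower: Kcnk10 (-0.11), Zc3h14 (-0.25), Eml5 (-0.20), Nrde2, Ttc7b and Rps6ka5. Before Dio2 3 of 20 did, Ahsa1 and Slirp higher and Snw1 lower. After DOX 4 before Dio2 did, in both directions, and 5 past Sel1l, of which only Kcnk10 was higher. The smallest p-values after DOX were those of Ttc7b (-0.47, limma adjusted p = 0.056) and Eml5, a microtubule-associated protein (-0.28, adjusted p = 0.075). Without treatment they were those of Nrde2 (-0.49, adjusted p = 0.061) and again Ttc7b (-0.40, adjusted p = 0.075). Nrxn3, next to Dio2, gave 0.37 after DOX (adjusted p = 0.086) and 0.06 without treatment, and Flrt2, next after Sel1l among genes with a probe set, gave -0.15 and 0.14. No flanking gene reached the size of the difference of the brightest Cep128 probe set in either comparison. Cep128 was chosen for that difference, so this is a description with no test. After DOX Ttc7b and Galc did exceed in size the -0.41 of the dim Cep128 1429228_at. Among all 623 other genes of chromosome 12 with a probe set, 8 were called after DOX (1.28%, against 1.42% of all genes) and 13 without treatment (2.09%, against 2.75%).

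The DOX response did reach some flanking genes. In knockout-labelled hearts 4 of 40 were called, against 3.24% of all genes, with Ahsa1, a cochaperone that activates HSP90 (-0.70, limma adjusted p = 0.018), Slirp, which binds mitochondrial mRNAs (-0.37, adjusted p = 0.038), and Tmed8 (-0.35, adjusted p = 0.028) lower and 3300002A11Rik higher (0.25, adjusted p = 0.023). In WT hearts 1 of 40 was called, against 3.97% of all genes, again 3300002A11Rik (0.27, adjusted p = 0.019). These calls held in 3 to 10 of the 12 fits without 1 array, and 0 of the 5 passed the methods' t-test after adjustment.

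**Figure D4:**
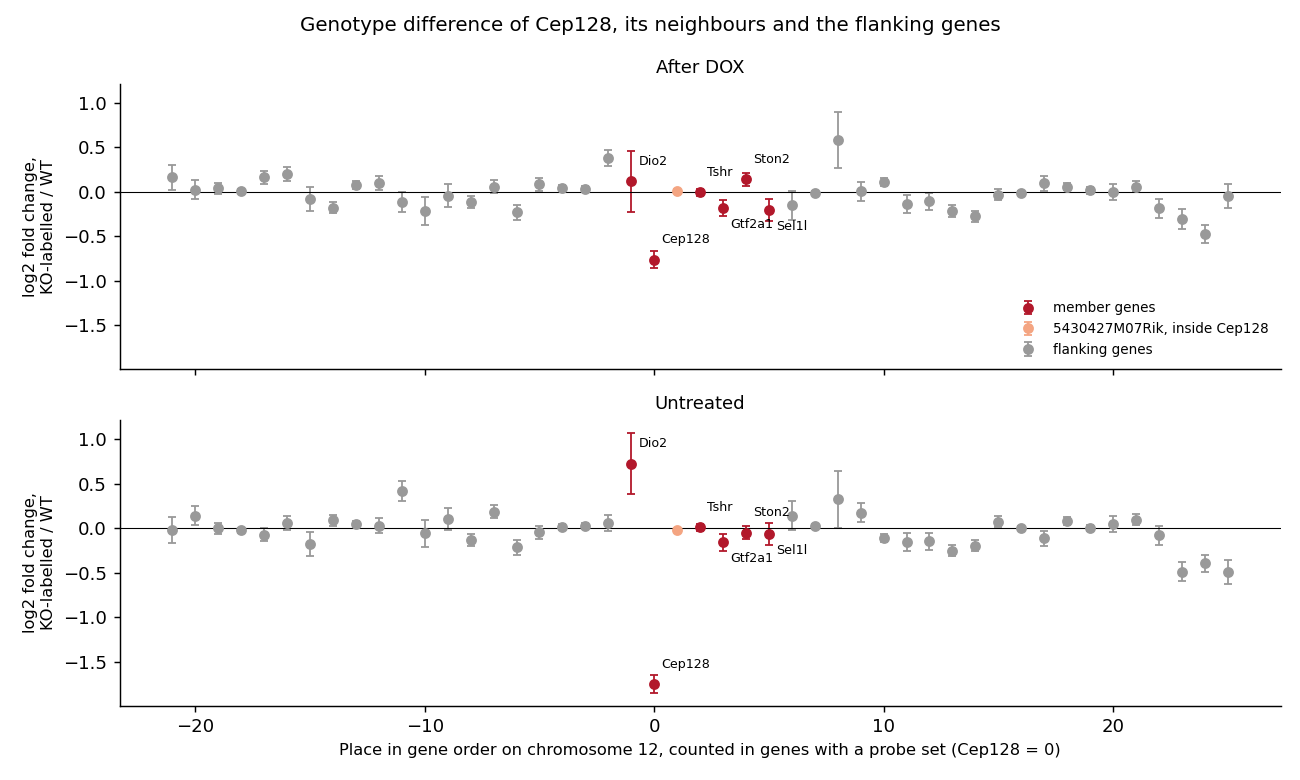
Log2 fold change of knockout-labelled over WT hearts for 1 probe set per gene in gene order along chromosome 12, after DOX (top) and untreated (bottom), with bars of 1 SE. Cep128 at place 0 lies at -0.76 and -1.75, while the other 46 genes shown lie between -0.49 and 0.72.

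Cep128 was then set beside a general list of genes of the centriole and centrosome. Of 45 other centriole and centrosome genes, 2 were lower in knockout-labelled hearts after DOX and 0 higher, against 1.42% of all genes, and 1 was lower without treatment and 0 higher, against 2.75%. Cep68, a linker protein that holds centrioles together, averaged 462 ± 24.6 in knockout-labelled DOX hearts against 618 ± 33.5 in WT DOX hearts, and 436 ± 42.4 in knockout-labelled untreated hearts against 576 ± 11.2 in WT untreated hearts (SD, n = 3 each). It was wholly lower in both states, by -0.40 (SE 0.06, limma adjusted p = 0.032) after DOX and -0.38 (SE 0.06, adjusted p = 0.022) without treatment on the log2 scale. Odf2, which builds the appendages on which CEP128 sits, averaged 219 ± 21.3 in knockout-labelled DOX hearts against 333 ± 24.6 in WT DOX hearts, a difference of -0.54 (SE 0.09, adjusted p = 0.037). Without treatment Odf2 gave -0.19 (adjusted p = 0.41). The list median was -0.07 after DOX and -0.02 without treatment, against 0.01 and -0.01 over all genes.

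In WT hearts DOX raised 4 of the 45 and lowered 0, against 3.97% of all genes. They were Odf2 (0.51, limma adjusted p = 0.025), Cep85 (0.44, adjusted p = 0.043), the centriolar satellite protein Cep131 (0.29, adjusted p = 0.043) and Ift88, a carrier of intraflagellar transport (0.22, adjusted p = 0.041). Odf2 averaged 333 ± 24.6 in WT DOX hearts against 225 ± 33.8 in WT untreated hearts, so that it moved opposite to Cep128 there. In knockout-labelled hearts 0 of the 45 were called for DOX by limma, with 12 at an unadjusted p under 0.05 against 20.4% of all genes, while 15 reached it in WT hearts against 22.2%. For the interaction 0 were called and 3 reached it, against 9.85%. Each of these centriole calls was lost in 4 to 10 of the 12 fits without 1 array, and 0 passed the methods' t-test after adjustment.

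**Figure D5:**
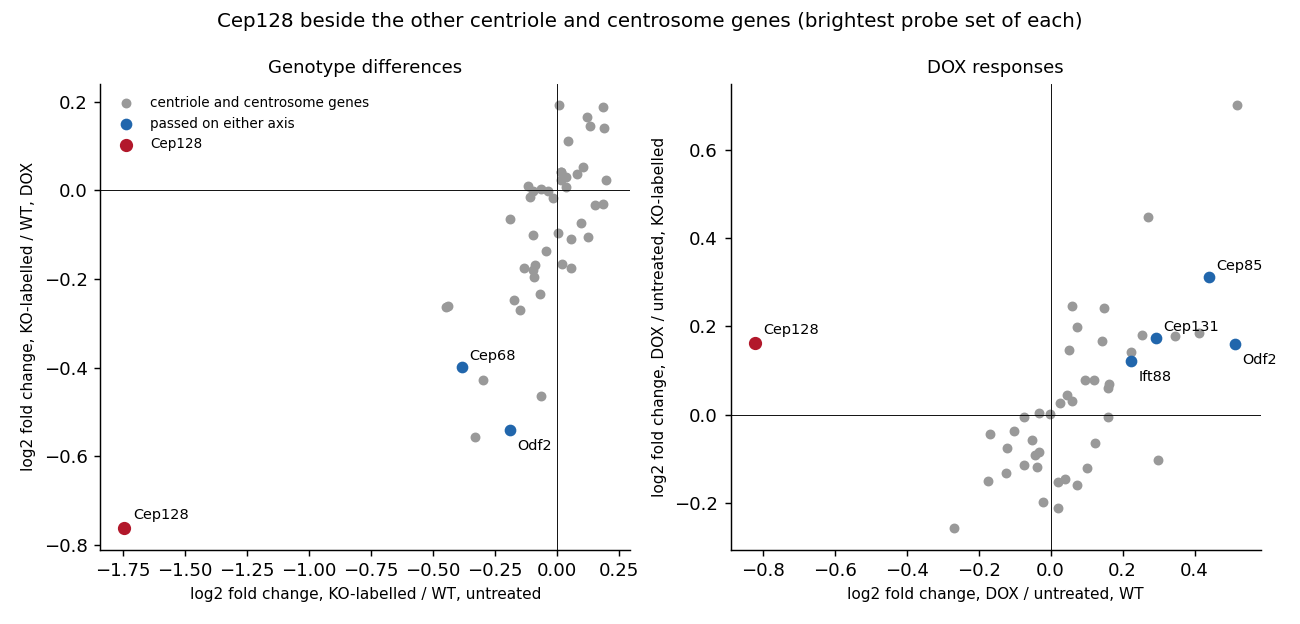
Log2 fold changes of 45 centriole and centrosome genes (grey, blue where called on either axis) and of Cep128 (red), 1 probe set each, for the genotype differences (left) and the DOX responses (right). The axes of a panel share no arrays. Cep128 lies at -1.75 and -0.76 on the left, and on the right at -0.82 in WT hearts and 0.16 in knockout-labelled hearts.

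The lists that go with the neighbours are read against the same shares of all genes, 1.42% called for genotype after DOX and 2.75% without treatment, 3.24% for DOX in knockout-labelled hearts and 3.97% in WT hearts. Of 13 genes that carry, convert or bind thyroid hormone, the setting of Dio2, 1 was called for genotype without treatment (7.69%) and 0 after DOX by limma, with 5 and 1 at an unadjusted p under 0.05. Rxrg, the retinoid X receptor gamma that pairs with thyroid hormone receptors, averaged 285 ± 11.3 in knockout-labelled untreated hearts against 429 ± 29.1 in WT untreated hearts (-0.54, SE 0.05, adjusted p = 0.0046). After DOX the genotypes overlapped at 361 ± 18.0 and 358 ± 15.9. DOX raised Rxrg in knockout-labelled hearts (0.31, adjusted p = 0.025) and lowered it in WT hearts (-0.24, adjusted p = 0.047), while its interaction of 0.55 was not called (adjusted p = 0.17). The nuclear receptor Thra gave -0.37 after DOX (adjusted p = 0.15) and -0.42 without treatment (adjusted p = 0.097), and the transporter Slc16a10 gave 0.32 after DOX (adjusted p = 0.34). None of 14 thyroid hormone target genes of the heart was called by limma in any comparison, with 2 after DOX and 3 without treatment at an unadjusted p under 0.05 for genotype, against 18.8% and 18.6% of all genes. The 2 with the smallest p for genotype were Hcn2, a pacemaker channel (0.29, adjusted p = 0.12) and the calcium pump Atp2a2 (0.09, adjusted p = 0.23) after DOX and Klf9 (-0.48, adjusted p = 0.093) and Thrsp (-0.80, adjusted p = 0.12) without treatment.

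Of 15 genes of TSH receptor signaling, the setting of Tshr, only the G protein subunit Gna11 was called for genotype (6.67%, against 2.75% of all genes without treatment), at 702 ± 43.9 in knockout-labelled untreated hearts against 914 ± 7.03 in WT untreated hearts (-0.37, adjusted p = 0.012). After DOX the smallest p-values were those of the adenylate cyclases Adcy3 (0.22, adjusted p = 0.056) and Adcy5 (0.25, adjusted p = 0.074). Of 28 ER-associated degradation genes, the setting of Sel1l, 2 were called higher in knockout-labelled untreated hearts and 0 lower (7.14%, against 2.75% of all genes). Derl2, a channel protein of the HRD1 complex, averaged 646 ± 43.3 against 452 ± 11.2 in WT untreated hearts (0.49, adjusted p = 0.027), and Ufd1, a cofactor of the p97 ATPase, 437 ± 38.7 against 332 ± 20.8 (0.36, adjusted p = 0.031). Neither was called after DOX, where Derl2 gave 0.08 and Ufd1 0.16. The smallest p-values there were those of the ubiquitin ligase Rnf5 (0.36, adjusted p = 0.084) and of Erlec1, a lectin of the pathway (0.29, adjusted p = 0.15). Nploc4, the partner of Ufd1, was higher in WT DOX than in WT untreated hearts (0.24, adjusted p = 0.030).

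Of 23 general transcription factor genes, the setting of Gtf2a1, 0 were called for genotype by limma, against 1.42% of all genes after DOX and 2.75% without treatment, with 2 and 6 at an unadjusted p under 0.05, against 18.8% and 18.6%. The TFIID subunits Taf12 (-0.21, adjusted p = 0.16) and Taf1 (-0.19, adjusted p = 0.28) had the smallest p after DOX, and Gtf2h3 of TFIIH (0.19, adjusted p = 0.059) and the TBP-like Tbpl1 (0.23, adjusted p = 0.12) without treatment. Gtf2h3 was lower in knockout-labelled DOX than in knockout-labelled untreated hearts (-0.23, adjusted p = 0.032). Of 29 clathrin adaptor and endocytosis genes, the setting of Ston2, 1 was called for genotype after DOX, Amph (3.45%, against 1.42% of all genes), and 0 without treatment, with 7 and 5 at an unadjusted p under 0.05. Amph, amphiphysin, read 12.2, 10.6 and 10.1 in knockout-labelled DOX hearts against 23.2, 24.2 and 25.3 in WT DOX hearts (-0.39, adjusted p = 0.0031), which are dim values. Without treatment Amph gave -0.14 (adjusted p = 0.071) and Eps15l1, a coated pit protein, -0.36 (adjusted p = 0.078). Amph was also higher in WT DOX than in WT untreated hearts (0.32, adjusted p = 0.0046). Dab2, an adaptor for cargo of clathrin pits, was lower after DOX in both genotypes (-0.79, adjusted p = 0.030 in knockout-labelled hearts and -0.89, adjusted p = 0.021 in WT hearts). Over all 7 lists there were 19 calls of a gene in a comparison, of which 3 held in each of the 12 fits without 1 array, namely Rxrg without treatment and both calls of Amph, and 0 passed the methods' t-test after adjustment.

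The genes whose intensities followed Cep128 most closely over the 12 arrays were sought among 11917 probe sets that name 1 gene and have a mean of at least 100. The highest Pearson correlations with 1441867_x_at on the log2 scale were those of Eif4e, the cap-binding translation factor (r = 0.95), Mpv17, a mitochondrial inner membrane protein (0.94), Epb41l3 (0.93), the interleukin receptor chain Il10rb (0.93) and Trdn, triadin of the sarcoplasmic reticulum (0.93). The lowest were those of the lysosomal protease Ctsd, Phlda3, Exoc4 and Dcun1d1 (-0.93 each) and the autophagy factor Becn1 (-0.92). Eif4e averaged 595 ± 47.6 in knockout-labelled DOX hearts and 676 ± 18.5 in WT DOX hearts, and 573 ± 43.1 in knockout-labelled untreated hearts and 952 ± 50.1 in WT untreated hearts (SD, n = 3 each). These genes were picked for their likeness from many, and the 12 points share 4 group means, so the correlations describe the group pattern and carry no test.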

How the data were processed

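The series matrix holds, per the labels, biotin-labelled cRNA of whole hearts on 12 arrays, and the deposited values are linear intensities per probe set that the authors made with Affymetrix Expression Console (version, summary method and scaling not given in the sources used here). They were used as deposited. Probe sets were named through the platform annotation, in which 34945 name 1 gene, 932 several and 9160 none, and 34741 were matched to the RefSeq gene table of GRCm38.p6, which served for gene order only. Arrays were grouped by genotype and treatment in the labels.

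After 32 was added, log2 values of all 12 arrays were fitted with 4 group means in limma 3.58.1 (R 4.3.3, lmFit, contrasts and eBayes without trend), two-sided, with Benjamini-Hochberg adjustment over 45037 probe sets and a probe set was called below 0.05. Comparisons, 5 in all, were genotype (knockout-labelled minus WT) after DOX and without treatment, DOX minus no treatment in each genotype, and the interaction. Means and SDs are of linear intensities, and the number of arrays limits the precision. For a gene with several probe sets in a list, the one with the highest mean was used.

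The members, the 7 pathway lists, the 11 marker lists and the tests were chosen with earlier results of these data known. The genes named are every member, every called gene of a list or flank and otherwise those with the smallest p, the 5 most and 5 least like Cep128, and Stub1. Nrxn3, Flrt2, the flanking genes given by side and the fat and fibroblast markers were named after their values were seen. Of 180 list genes, 167 were matched.

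Alternatives were quantile normalization, array medians subtracted, 1, 16 or 64 added, a filter at a mean of 32, a trended and robust variance, array weights, the replicate number as a block, a fit to the arrays compared, the Student's t-test of the methods, all probe sets of a gene, and leaving out each array. On simulated data for the genotype difference after DOX with all 45037 probe sets, 41 of 67 probe sets changed 1.5-fold, 54 of 67 changed 2-fold and 66 of 66 changed 4-fold were recovered, with 13 false calls. The changed probe sets were drawn only from those with a mean of at least 32, and the folds were of intensity plus 32. Recovery was not simulated for dimmer probe sets, which include 9 of the 16 neighbour probe sets. Python 3.11.15 with pandas 2.3.3 and matplotlib 3.10.9 served for tables and plots.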

Additional observations from a re-analysis of the deposited data

How the results depend on the processing

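No result that was called changed direction under any alternative, and the neighbours stayed uncalled for genotype in every limma fit. At its unadjusted threshold the methods' t-test gave 2 of 16 neighbour probe sets after DOX, with no share of all probe sets by that test to set beside it. The 2 Cep128 probe sets called for DOX in WT hearts became 1 with array medians subtracted, with 64 added, with the replicate number as a block and with only the arrays compared, 0 with the methods' t-test (where the brightest stood at -0.82 with an adjusted p of 0.19), and 1 to 2 when 1 array was left out. The log2 difference of the brightest Cep128 probe set without treatment was -1.99 with 1 added and -1.56 with 64 added, against -1.75 with 32, since the added value damps dim readings. Over all probe sets, calls for genotype ran between 0 and 739 after DOX (424 in the fit reported) and between 3 and 1414 without treatment (817), calls for DOX between 0 and 1707 in knockout-labelled hearts (990) and between 4 and 2555 in WT hearts (1379), with the lowest counts from the methods' t-test, and interaction calls between 0 and 5. Without 1 array these ran between 19 and 893, 84 and 1206, 116 and 1090.0, 41 and 2285, and 0 and 2. Deviations of same-numbered arrays correlated at -0.25 to 0.15, against -0.29 to 0.28 for differently numbered arrays. This gave no sign that the numbers pair the arrays, though with 3 arrays per group it cannot exclude pairing. With the replicate block 336, 832, 1095 and 1335 probe sets were called in these 4 comparisons, and among the members only the second Cep128 probe set lost its DOX call in WT hearts (adjusted p = 0.073). With quantile normalization or all probe sets of each gene the list counts moved by at most 3. The low signal of 11 of 20 member probe sets limits what can be read from Dio2, Tshr and Ston2.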
